A study of Mus musculus with 2 samples.

Results

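The genes described here are 10 genes that enteric neurons use to make or load their transmitters: Chat and Slc18a3 for acetylcholine, Nos1 for nitric oxide, Th and Dbh for catecholamines, and the neuropeptide precursor genes Vip, Gal, Npy, Tac1 and Penk. They were chosen by name, and all 10 were found among the 43346 genes of the tables. They were measured by total RNA-seq, which sequences all longer RNA, in 2 libraries of embryonic day 14.5 intestine from B6NCrl mice, a C57BL/6N strain, with no treatment or engineered allele given. Each library was made from 10 ng of RNA above 200 nucleotides from a single intestine, per the labels. The source label of both also reads mixed sex embryo, so whether each library holds 1 animal is not clear. These biological replicates (replicate 1 and replicate 2) form the only group, so the data hold no contrast between conditions, and the spread given throughout is that between them. The labels give both the same pup and dam numbers, a pooled sex and different collection days, so whether they came from 1 litter is not clear, and day and animal cannot be told apart.

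Enteric neurons descend from neural crest cells that enter the gut from the foregut, move along it during mid-gestation and differentiate into classes that release different transmitters. In the mature gut, excitatory motor neurons use acetylcholine and tachykinins, and inhibitory motor neurons use nitric oxide and vasoactive intestinal peptide. Enkephalins, galanin and neuropeptide Y are further peptides of enteric neurons. Catecholamine enzymes mark sympathetic nerves and, in the mouse embryo, also some crest-derived cells of the gut wall for a time.

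The tables held 34504419 estimated counts for replicate 1 and 34042802 for replicate 2, of which synthetic spike-in RNA took 4.54% and 4.91%. Levels are TPM (abundance scaled for transcript length and relative to the whole library), and detection means at least 1 TPM in replicate 1 and in replicate 2. All 6 markers of enteric neurons were detected, led by the ubiquitin hydrolase gene Uchl1 at 81.0 ± 4.33 TPM (SD, n = 2), the tubulin gene Tubb3 at 78.9 ± 2.63 TPM and the RNA-binding protein gene Elavl4 at 55.7 ± 8.15 TPM. Pancreas markers set the libraries apart: 1 of 6 reached 1 TPM in replicate 1 and 6 of 6 in replicate 2, with summed levels of 2.48 and 629 TPM. The tissue was sequenced whole, so a low level may come from few cells or from little RNA per cell, which cannot be told apart.

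The peptide genes Penk, Gal and Vip had the highest mean TPM of the 10 genes. Together they held 81.5% of the summed TPM of the 10 genes in replicate 1 and 79.9% in replicate 2, and the sum itself was 79.8 and 80.7 TPM. Slc18a3 followed at 8.87 ± 0.0849 TPM (SD, n = 2), Npy at 2.52 ± 1.86 TPM, and Dbh, Th, Nos1, Chat and Tac1 had means of 1.24 TPM or less. Of the 10 genes 5 were detected, against 61.3% of the 21461 nuclear protein-coding genes. The median of the 10 mean levels was 1.88 TPM, against 4.88 TPM over all those protein-coding genes, and the highest mean was 61.8-fold the lowest. In the order of mean TPM, the values of neighbours overlapped between Gal and Vip, Npy and Dbh, Dbh and Th, Nos1 and Chat, and Chat and Tac1, so these pairs did not differ beyond the spread of the replicates. Values did not overlap between Penk and Gal, Vip and Slc18a3, Slc18a3 and Npy, or Th and Nos1, although the deposited 95% intervals overlapped for Penk with Gal and for Th with Nos1.

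**Figure D1:**
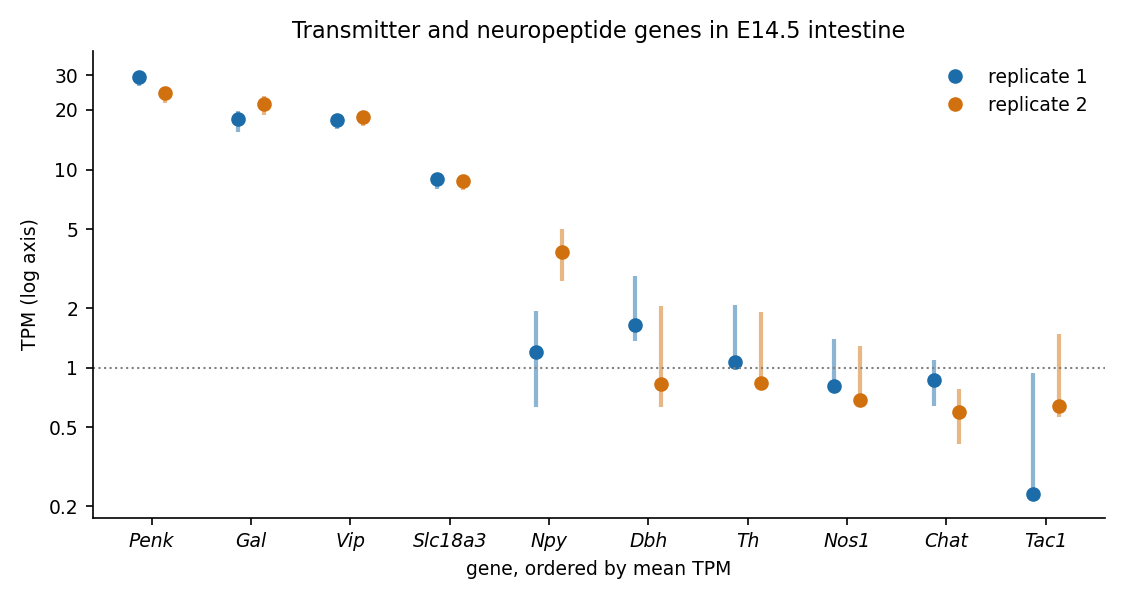
TPM (log axis) of the 10 genes in replicate 1 (blue) and replicate 2 (orange), ordered by mean TPM. Points are the deposited TPM, vertical lines the deposited 95% intervals, which are centred on a posterior mean, and the dotted line marks 1 TPM. Penk, Gal and Vip lie between 17.79 and 29.38 TPM, Slc18a3 near 8.9 TPM, and Tac1 lowest at 0.23 and 0.64 TPM.

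RefSeq promoters on GRCm38.p6 were held for 9 of the 10 genes, all but Penk. In the 250 bases before the start, TGACG, the core letters that cyclic AMP response factors of the CREB family bind, occurred on either strand in 7 of 9 (Chat, Dbh, Nos1, Slc18a3, Tac1, Th and Vip), and in 17.8% of 32851 promoters of that length. The full palindrome TGACGTCA, which contains TGACG, occurred in Th alone among the 9, and in 1.55% of all promoters. TATAAA, the letters of a TATA box, occurred on either strand in Vip alone among the 9, and in 12.4% of all promoters. The promoters of Vip, Gal and Slc18a3, which are among the highest genes, are printed with that of Th, which alone holds the palindrome. Vip held TATAAA 30, 147 and 157 bases and TGACG 79 bases before the start, Slc18a3 held TGACG on the opposite strand 49 bases before it, and Th held the palindrome 45 bases before it. Gal, at 19.7 ± 2.56 TPM (SD, n = 2), held none of the 3 motifs, while Th was at 0.955 ± 0.163 TPM. A match here describes letters, not a bound site. Each sequence runs along the gene's own strand with matched letters in capitals (CGTCA is TGACG on the opposite strand). Vip lies on the plus strand at chr10:5638968-5639217, and Gal, Slc18a3 and Th on the minus strand at chr19:3414545-3414794, chr14:32464851-32465100 and chr7:142899996-142900245. The Slc18a3 window lies inside the first intron of Chat, and 19 bases of the Th window overlap an annotated Th exon. The windows precede the RefSeq start, which need not be the outer bound of the annotated gene. By the annotated bounds, the Dbh, Nos1 and Th windows lie wholly inside their genes, and the Chat and Tac1 windows lie partly inside theirs. The TGACG matches of Dbh, Nos1 and Th thus fall within the annotated genes.
Vip: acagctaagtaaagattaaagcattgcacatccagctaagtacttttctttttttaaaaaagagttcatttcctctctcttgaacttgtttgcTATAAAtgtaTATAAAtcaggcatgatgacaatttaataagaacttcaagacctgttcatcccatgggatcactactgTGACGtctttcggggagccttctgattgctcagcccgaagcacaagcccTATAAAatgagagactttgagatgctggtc
Gal: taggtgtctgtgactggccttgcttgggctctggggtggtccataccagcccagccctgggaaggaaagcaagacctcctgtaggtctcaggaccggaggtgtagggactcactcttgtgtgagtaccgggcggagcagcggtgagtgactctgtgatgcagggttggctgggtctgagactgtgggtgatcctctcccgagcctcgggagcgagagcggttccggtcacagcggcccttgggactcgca
Slc18a3: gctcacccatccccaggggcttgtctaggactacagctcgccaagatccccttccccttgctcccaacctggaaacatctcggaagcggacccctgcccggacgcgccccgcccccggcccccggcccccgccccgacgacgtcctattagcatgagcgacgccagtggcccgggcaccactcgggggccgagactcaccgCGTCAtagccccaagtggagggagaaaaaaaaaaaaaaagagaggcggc
Th: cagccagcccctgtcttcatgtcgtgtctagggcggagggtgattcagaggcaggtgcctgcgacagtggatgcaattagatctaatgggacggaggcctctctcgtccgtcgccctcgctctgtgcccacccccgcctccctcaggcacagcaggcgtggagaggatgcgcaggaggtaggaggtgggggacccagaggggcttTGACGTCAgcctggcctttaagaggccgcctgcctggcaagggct

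Penk encodes proenkephalin, the precursor of the opioid enkephalins (ENSMUSG00000045573.9, chromosome 4, 4133531 to 4138819 on GRCm38, the build of all positions given). It had the highest level in each library, with 29.38 TPM from 805 estimated counts in replicate 1 and 24.38 TPM from 650 counts in replicate 2. Its deposited 95% intervals, 26.5 to 31.1 and 21.8 to 26.0 TPM, did not overlap. The 6 enteric neuron markers, with summed levels of 313 TPM in replicate 1 and 292 TPM in replicate 2, did not all differ that way. Elavl4, at 61.44 and 49.91 TPM, was lower in replicate 2 with intervals that did not overlap, while the filament gene Prph was at 38.38 and 41.19 TPM and the receptor gene Ret at 12.99 and 13.05 TPM. Penk had 2 quantified transcripts, where Gal, Vip and Slc18a3 had 1 each and so could not be split. Penk-201 held 73.5 ± 4.36% and the shorter Penk-202 26.5 ± 4.36% of the TPM of Penk (SD, n = 2). The non-coding gene A830012C17Rik overlaps it on the opposite strand and had 0.39 and 0.16 TPM.

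Gal encodes the precursor of galanin (ENSMUSG00000024907.6, chromosome 19, 3409915 to 3414544). It had 17.91 TPM from 255 counts in replicate 1 and 21.53 TPM from 310 counts in replicate 2, with intervals of 15.4 to 19.7 and 18.8 to 23.5 TPM that overlap. It was thus slightly higher in the library where Penk was lower. Vip encodes vasoactive intestinal peptide, which relaxes gut smooth muscle (ENSMUSG00000019772.4, chromosome 10, 5639218 to 5647617). It had 17.79 TPM from 590 counts in replicate 1 and 18.54 TPM from 622 counts in replicate 2. The libraries differed in Vip by less than either interval is wide (16.0 to 18.8 and 16.7 to 19.5 TPM). Among detected protein-coding genes, Penk, Gal and Vip stood at percentiles 60.9, 52.2 and 49.6 of mean TPM, near the middle of the expressed genes of the tissue.

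Npy, the neuropeptide Y gene (ENSMUSG00000029819.6, chromosome 6, 49822710 to 49829507), had 1.20 TPM from 13 counts in replicate 1 and 3.83 TPM from 42 counts in replicate 2. Replicate 2 was 3.19-fold higher, and the deposited intervals, 0.637 to 1.93 and 2.75 to 5.03 TPM, did not overlap. The exact Poisson 95% intervals of the counts, 6.92 to 22.2 and 30.3 to 56.8, were apart as well, and cover counting error only. Tac1, the precursor gene of substance P and neurokinin A (ENSMUSG00000061762.8, chromosome 6, 7554879 to 7565834), was the lowest of the 10. It had 0.23 TPM from 6 counts in replicate 1 and 0.64 TPM from 17 counts in replicate 2, and the intervals, 0.224 to 0.938 and 0.567 to 1.49 TPM, overlap. A count of 3 would have given it 0.115 and 0.113 TPM, so it was above that floor in both libraries.

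The acetylcholine genes form a nested locus on chromosome 14. Slc18a3, whose product loads acetylcholine into vesicles (ENSMUSG00000100241.1, 32462438 to 32464850), lies wholly within intron 1 of Chat-201 (32460914 to 32465806) on the same strand and overlaps no annotated exon of Chat. Slc18a3 had 8.93 TPM from 480 counts in replicate 1 and 8.81 TPM from 479 counts in replicate 2, the closest agreement among the 10 genes. Chat, which encodes the enzyme that makes acetylcholine (ENSMUSG00000021919.7, 32408203 to 32465989), had 0.87 TPM from 55 counts and 0.60 TPM from 38 counts, with overlapping intervals of 0.645 to 1.10 and 0.411 to 0.782 TPM.

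Slc18a3 therefore exceeded Chat 10.3-fold in replicate 1 (95% counting interval 7.72 to 13.8) and 14.7-fold in replicate 2 (10.6 to 21.1). Total RNA contains unspliced transcripts, and reads from unspliced Chat within that intron cannot be told apart from Slc18a3 reads in these tables. Only 1 Chat transcript was quantified, Chat-201. The antisense gene Gm2990, which overlaps the start of Chat, had 2.34 and 1.81 TPM, above Chat itself, and without knowledge of the strand setting, reads where it overlaps Chat cannot be told apart. Of the other genes of acetylcholine handling, Slc5a7, the choline transporter of cholinergic terminals, had 2.01 and 2.32 TPM, or 2.31-fold (1.71 to 3.14) and 3.87-fold (2.77 to 5.62) the level of Chat. The esterase genes Ache and Bche were at 9.94 ± 0.962 and 5.12 ± 0.474 TPM and the esterase anchor gene Prima1 at 1.77 ± 0.467 TPM (SD, n = 2). In all 5 of 6 genes of this group were detected, and Chat was the exception.

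Nos1 encodes neuronal nitric oxide synthase (ENSMUSG00000029361.14, chromosome 5, 117781032 to 117958840). It had 0.81 TPM in replicate 1 and 0.69 TPM in replicate 2, from 188 and 162 counts. Its main transcript is 10123 bases long, so that it drew more counts than Chat in each library at a similar TPM. Of 7 quantified transcripts, the longest, which encodes protein, held 99.1 ± 1.22% of the TPM (SD, n = 2), and 5 had 0 counts in both libraries, although the posterior mean, a second estimate of level in the tables, gave the longest a share of 71.23% and 67.66%. The inducible gene Nos2 was at 0.85 ± 0.0283 TPM and the endothelial gene Nos3 at 5.24 ± 0.148 TPM, so Nos1 was below Nos3 in each library. The downstream genes were higher, with the guanylate cyclase subunit genes Gucy1b1 and Gucy1a1 at 65.8 ± 9.41 and 47.5 ± 4.31 TPM and the phosphodiesterase gene Pde5a at 22.9 ± 0.325 TPM. Smooth muscle, a tissue on which nitric oxide acts through this cyclase, had markers at 1556 ± 110 TPM for Acta2, 1072 ± 11.0 TPM for Actg2 and 166 ± 9.23 TPM for Myh11. In all, 6 of 8 genes of nitric oxide signalling were detected, all but Nos1 and Nos2.

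Th, which encodes the rate-limiting enzyme of catecholamine synthesis (ENSMUSG00000000214.6, chromosome 7, 142892752 to 142931128), had 1.07 TPM from 43 counts in replicate 1 and 0.84 TPM from 31 counts in replicate 2. Dbh, which encodes the enzyme that turns dopamine into noradrenaline (ENSMUSG00000000889.8, chromosome 2, 27165233 to 27183200), had 1.65 TPM from 94 counts and 0.83 TPM from 48 counts. Both genes thus crossed the 1 TPM line between the libraries, and the intervals overlap for each (1.02 to 2.08 and 0.784 to 1.92 TPM for Th, 1.36 to 2.91 and 0.632 to 2.04 TPM for Dbh). The ratio of Dbh to Th was 1.54 (1.06 to 2.27) in replicate 1 and 0.988 (0.622 to 1.62) in replicate 2.

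The other steps were unequal. Ddc, whose decarboxylase acts between Th and Dbh and also in serotonin synthesis, was at 28.7 ± 1.45 TPM (SD, n = 2), 25.8-fold and 35.3-fold the level of Th. Slc18a2, the vesicular monoamine transporter gene, was at 10.5 ± 0.354 TPM, 10.1-fold and 12.2-fold the level of Th. The monoamine oxidase gene Maob was at 12.3 ± 2.18 TPM. Pnmt, the adrenaline-forming enzyme gene of chromaffin cells, had 0 counts in both libraries, and Slc6a2, the noradrenaline transporter gene of sympathetic neurons, had 2 and 5 counts. Of 5 sympathetic and chromaffin markers 1 was detected, Isl1 at 3.01 ± 1.28 TPM, with Gata3 at 1.02 ± 0.516 TPM, and the summed level of the 5 was 3.58 and 6.34 TPM. That count was 3 at a threshold of 0.5 TPM, 2 by posterior mean and 2 without replicate 1, and the posterior mean of Gata3 was 1.85 and 2.37 TPM. Isl1 was at 2.11 TPM in replicate 1 and 3.92 TPM in replicate 2, with intervals that did not overlap. It was thus higher in replicate 2, as the pancreas markers were, whereas Th and Dbh were lower there. The cell source of Isl1 was not tested. Of 5 adrenal cortex markers 2 were detected, Cyp11a1 at 2.88 ± 0.742 and Star at 1.30 ± 0.156 TPM, with Nr5a1 at 0.08 ± 0.0141 TPM, Cyp11b1 with 1 and 0 counts, Cyp21a1 with 0 in both, and a sum of 4.92 and 3.62 TPM. Their part in the Th and Dbh levels was not tested.

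**Figure D2:**
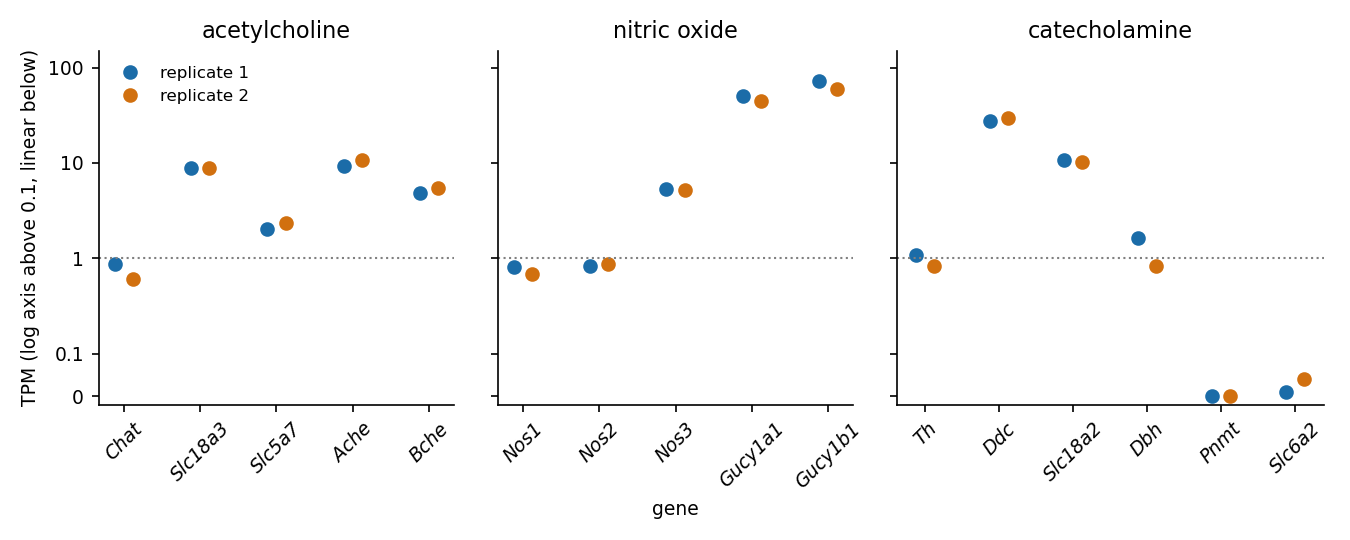
TPM (log axis above 0.1, linear below) of genes acting on acetylcholine, nitric oxide and catecholamines in replicate 1 (blue) and replicate 2 (orange), with a dotted line at 1 TPM. The synthetic enzyme genes Chat, Nos1 and Th lie at or below about 1 TPM, under Slc18a3, Nos3, Ddc and Slc18a2 of the same panels, while Pnmt is at 0 in both libraries.

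The low genes depended on which deposited estimate was read. Posterior mean TPM was within 0.977 to 1.01 of TPM for Penk, Gal, Vip, Slc18a3, Npy and Chat. It was 1.8-fold TPM for Tac1, 1.48-fold for Th, 1.38-fold for Nos1 and 1.31-fold for Dbh, which have 5, 6, 7 and 2 quantified transcripts. Penk, at 0.98, also has 2. By posterior mean, Dbh was at 1.62 ± 0.566, Th at 1.42 ± 0.148, Nos1 at 1.04 ± 0.0778 and Tac1 at 0.785 ± 0.318 TPM (SD, n = 2). Within Dbh, the non-coding transcript Dbh-202 of 205 bases had 0 counts in both libraries and yet 0.40 and 0.39 TPM by posterior mean. The deposited intervals surround the posterior mean, and for Nos1 the TPM of replicate 1, 0.81, lay below its own interval of 0.813 to 1.40 TPM, as did that of replicate 2, 0.69, below 0.699 to 1.29 TPM.

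By deposited isoform share, Th-201 held 100% of Th in replicate 1 and 82.47% in replicate 2, where Th-203, annotated as subject to nonsense-mediated decay, had 17.07% from 2.98 counts. Tac1-205 held 95.5 ± 2.10% of Tac1 (SD, n = 2) and 1 other transcript the remainder, from 6 and 17 counts in all. By posterior mean, Tac1-205 was at 31.44% and 45.49%, so at this depth the shares within Tac1 and Th were not resolved.

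**Figure D3:**
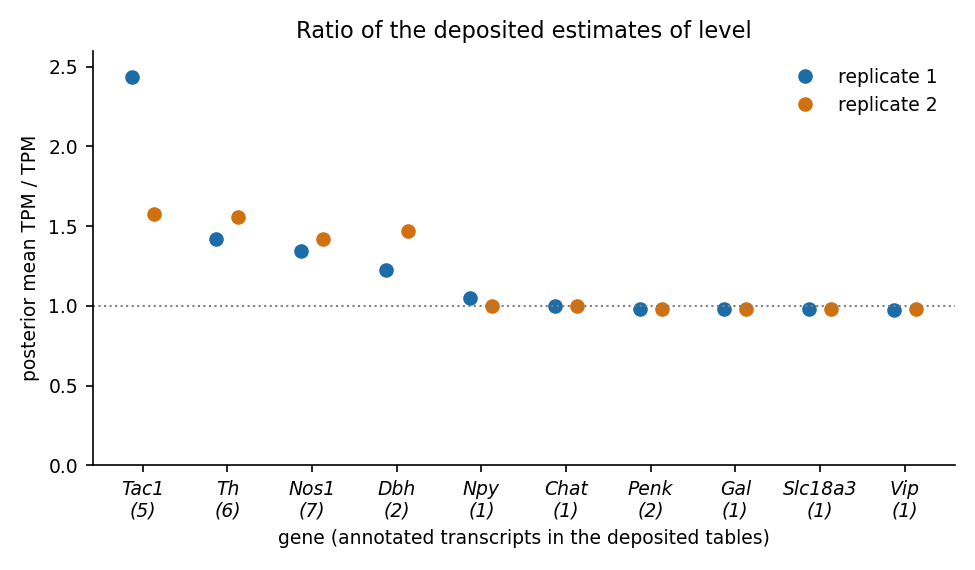
Ratio of posterior mean TPM to TPM for each gene in replicate 1 (blue) and replicate 2 (orange), with the number of quantified transcripts in brackets and a dotted line at 1. The ratio is above 1.2 in both libraries for Tac1, Th, Nos1 and Dbh, each with 2 or more transcripts, and near 1 for the other 6 genes. Penk, among the other 6, also has 2 transcripts.

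Between the libraries, a gene was called different when its mean TPM was at least 0.5, log2(TPM + 0.1) differed by at least 1 and the deposited 95% intervals did not overlap. Of the 9 genes that passed the level filter, 1 was called, Npy, which was higher in replicate 2 by 1.60 on the log2(TPM + 0.1) scale. Of all 17290 genes tested, 0.943% were called higher in replicate 2 and 0.208% higher in replicate 1. Intervals alone did not overlap for Npy and Penk, 2 of the 9 genes that passed the filter, against 19.2% of all genes tested. That share of the 9 genes was near the background. Among 4087 genes with a mean of 1 to 5 TPM, the absolute difference had a 95th percentile of 1.49, just under the value of Npy. Dbh, with a log2 difference of -0.91, lay below that percentile. Tac1, at a difference of 1.17, was left out by the filter, and 6 of the 10 genes were higher in replicate 1 and 4 in replicate 2.

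Pancreatic and endocrine genes differed between the same libraries in the direction of Npy. All 6 pancreas markers were called higher in replicate 2, among them the chymotrypsinogen gene Ctrb1 with 0 and 5554 counts, the insulin genes Ins2 and Ins1 with 0 counts in replicate 1 and 1323 and 428 counts in replicate 2, Cpa1 at 2.03 and 130.43 TPM, Gcg at 0.45 and 17.52 TPM, and Ptf1a with 0 and 190 counts. Of 6 markers of enteroendocrine cells 4 were called higher in replicate 2, Pyy at 0.16 and 32.46 TPM, Neurog3 at 6.57 and 15.64 TPM, Chga at 5.10 and 10.84 TPM and Neurod1 at 0.49 and 1.81 TPM, while Sct was at 128 ± 35.5 TPM and Tph1 at 0.295 ± 0.0778 TPM (SD, n = 2). Whether the 4 called enteroendocrine markers came from cells of the gut or of the pancreas was not tested. None of the 6 enteric neuron markers was called. The part of pancreatic or endocrine cells in the Npy difference was not tested.

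**Figure D4:**
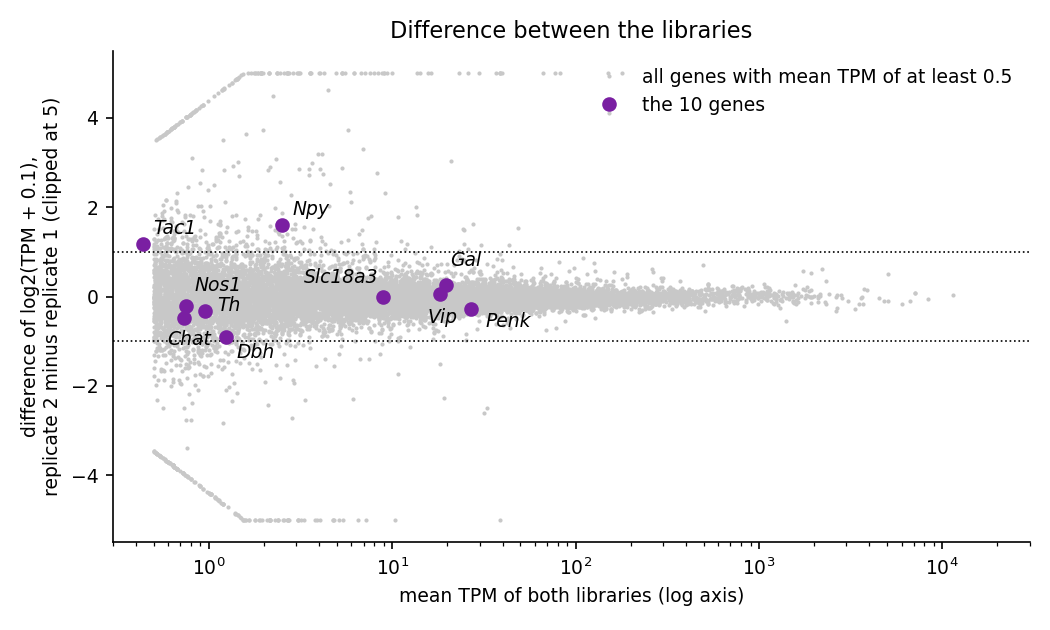
Difference of log2(TPM + 0.1), replicate 2 minus replicate 1 and clipped at 5, against mean TPM (log axis) for 17290 genes (grey) and the 10 genes described (purple), with dotted lines at 1 and -1. Npy at 1.60 and Tac1 at 1.17 lie above the upper line, and the other 8 genes lie between the lines.

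The remaining peptide precursors were measured for comparison. Of 13, 7 were detected. Cartpt, the precursor gene of the CART peptide, was at 35.2 ± 4.19 TPM, above Penk in each library, followed by Cck at 5.33 ± 0.269 and Tac2, which encodes the precursor of neurokinin B, at 5.23 ± 1.61 TPM (SD, n = 2). Tac2 exceeded Tac1 in each library, at 6.37 and 4.10 TPM. Sst was called higher in replicate 2, with 1 and 73 counts. The genes that cut, modify and store peptides were detected for 10 of 11 members, with the carboxypeptidase gene Cpe at 161 ± 7.66, the amidating enzyme gene Pam at 52.3 ± 1.61 and Scg5 at 14.0 ± 0.339 TPM. Chgb, with 3.34 and 11.93 TPM, Pcsk2, with 0.29 and 1.29 TPM, and Chga were called higher in replicate 2.

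Receptors for these transmitters were detected for 10 of 17 measured genes. The muscarinic receptor gene Chrm2 was at 26.0 ± 4.10 TPM and the nicotinic subunit genes Chrna3 and Chrnb4 were at 20.9 ± 2.65 and 9.70 ± 0.0849 TPM (SD, n = 2). The muscarinic receptor gene Chrm3 was lower, at 1.31 ± 0.318 TPM. Measured receptor genes for vasoactive intestinal peptide, opioid peptides and galanin lay below Chrm2, Chrna3 and Chrnb4, but not all below Chrm3. For Vip, Vipr2 was at 3.81 ± 0.198 and Vipr1 at 3.55 ± 0.721 TPM. Of the opioid receptor genes, Oprk1 was at 3.75 ± 0.375, Oprm1 at 0.48 ± 0.099 and Oprd1 at 0.24 ± 0.0707 TPM. For Gal, Galr1 and Galr2 were at 0.13 ± 0.0707 and 0.10 ± 0.0283 TPM. By posterior mean Oprm1 was at 2.12 and 2.05 TPM, and its intervals of 1.27 to 3.06 and 1.14 to 3.12 TPM lay above its TPM of 0.55 and 0.41. Gal was among the highest of the peptide genes while its measured receptors had 12 counts or fewer in each library.

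Genes of other transmitters differed in level. None of 6 genes for GABA and glutamate was detected, with Gad1 at 0.08 ± 0.0707, Slc17a6 at 0.065 ± 0.0919 and Slc17a8 at 0.035 ± 0.0212 TPM (SD, n = 2). Of 3 serotonin genes, the transporter gene Slc6a4 was detected at 5.33 ± 0.0919 TPM, and Tph2, the neuronal synthesis gene, had 0 counts in both libraries. Glial and progenitor markers were detected for 2 of 3, among them Sox10 at 13.3 ± 0.0212 TPM, with S100b at 1.05 ± 0.127 TPM. All 3 epithelial markers were detected, Epcam at 511 ± 8.15, Krt8 at 370 ± 62.0 and Cdh1 at 115 ± 5.52 TPM.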

How the data were processed

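Gene and transcript tables of 2 total RNA-seq libraries were used. Per the deposited file notes, alignment was to mm10 and the annotation was GENCODE M4, with separate tables per library. The quantification tool, its version or its strand setting is not given in the sources used here. The deposited tables give expected counts, TPM over all features including spike-ins, FPKM (not used), the percent share of each isoform, and interval bounds of TPM, treated here as scores. Symbols and positions were taken from GENCODE M21, a later annotation of the same GRCm38 assembly, and matched 42462 of 43346 identifiers. Promoters came from RefSeq.

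With 1 group no test between conditions was possible. Poisson intervals are exact, ratio intervals are exact (Clopper-Pearson), and all cover counting error only, since PCR copies of 1 molecule count more than once. A floor of 3 counts was used. The genes and 16 lists (109 different genes measured) were chosen with earlier results of these data known. Named were all 10 genes, the 3 highest of each list, list genes called between libraries, and genes of the same synthesis or transport step; further list genes were named after their values were seen. Some genes that this rule names are not reported here. The rule between libraries was run on simulated data, with an outcome that is not reported here and not used as support.

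Alternatives were other thresholds, pseudocounts and estimates, spike-in scaling, TMM factors (edgeR 4.0.16) and size factors (DESeq2 1.42.0) from rounded expected counts, and each library alone.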

Additional observations from a re-analysis of the deposited data

How the results depend on the processing

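The count of 5 detected genes among the 10 was 9 at a threshold of 0.5 TPM and 9 at an expected count of 10, 4 at 2 or 5 TPM, 7 by posterior mean TPM and 7 with TPM rescaled over nuclear protein-coding genes. It ranged from 5 without replicate 1 to 7 without replicate 2. The gene that differed between the libraries was Npy under every scaling and pseudocount tried, with log2 differences of 1.13 to 1.67, and with intervals alone the count was 2, Npy and Penk. Without 1 library this count has no value. Of 10 ranks by mean TPM, 6 were kept without replicate 1, 6 without replicate 2, 8 by posterior mean TPM and 3 by expected count, which is not scaled by length. Penk, Gal, Vip and Slc18a3 kept ranks 1 to 4 in each replicate alone. Over the 16 lists, counts of detected genes moved by more than 1.5 times for 7 lists at 5 TPM, among them receptors (3 in place of 10), other peptide precursors (2 in place of 7) and acetylcholine genes (2 in place of 5). They moved for 1 list at 0.5 TPM, 2 by posterior mean and 3 without replicate 1. By posterior mean the leading transcript held 74.2% of Dbh, 69.4% of Nos1, 44.4% of Th and 38.5% of Tac1. Rescaling shifted replicate 2 against replicate 1 by 0.05 for TMM factors, 0.04 for DESeq2 size factors and -0.10 for spike-ins on the log2 scale. Depth limits Npy and Tac1 most, with 13 and 6 counts in replicate 1. No paired analysis was possible because there is only 1 group.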
